A study of Mus musculus with 12 samples.

Results

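RNA of CD31+ cells from mouse lung was examined for 5 genes that mark or serve particular kinds of endothelial cell (EC): Gja4 and Cxcl12, used as markers of arterial ECs, Aplnr and Grrp1, used as markers of lung capillary ECs, and Vegfc, a growth factor of lymphatic vessels. They were found by name in the 4 deposited tables, and all 5 were present among 9338 genes that the tables list in any comparison. They were chosen because of how they differed between the groups, so their values in these comparisons are a description and no test is given for them. The libraries came from male mice on a C57Bl/6J background, 3 mice in each of 4 groups, and each library is 1 mouse. All mice carried TET2fl/fl, a Tet2 gene flanked by loxP sites, and all received tamoxifen at 40 mg/kg daily for 3 days when 6 to 8 weeks old. WT mice lacked Cre, and TET2 KO mice carried Cdh5-CreERT2, a recombinase driven by the promoter of the endothelial cadherin and switched on by tamoxifen. Excision is thereby directed to ECs and is not aimed at other CD31+ cells, in which Tet2 was not measured separately. In each genotype one group stayed on standard chow, with 13% of energy from fat, and the other was fed a high fat diet (HFD), with 60% of energy from fat, for 20 weeks. Cells were isolated at 30 weeks of age with anti-CD31 microbeads, which enrich for ECs but also bind platelets and some leukocytes.

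The ECs of a vessel bed differ by position. Arterial ECs see fast flow, are coupled by connexins and owe much of their identity to Notch and SOX signals. Lung capillaries hold general capillary ECs, which can renew the bed, and aerocytes, thin cells specialised for gas exchange. Gja4 encodes connexin 37, a gap junction subunit of arterial endothelium. Cxcl12 encodes a chemokine whose receptor CXCR4 guides leukocytes and vessel growth, and ACKR3 removes the chemokine from its surroundings. Aplnr encodes the apelin receptor, a G protein-coupled receptor found on general capillary and venous cells, whose ligand apelin is made by other ECs, aerocytes among them. Grrp1 encodes a glycine- and arginine-rich protein of poorly known function. Vegfc encodes the ligand of VEGFR3, the product of Flt4, and drives the growth of lymphatic vessels.

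By the positions in the tables, Gja4 (ENSMUSG00000050234) lies on chromosome 4 from 127311421 to 127314039 on the minus strand, and Grrp1 (ENSMUSG00000050105) on the same chromosome from 134251110 to 134254106, also on the minus strand. Cxcl12 (ENSMUSG00000061353) lies on chromosome 6 from 117168535 to 117181367, Aplnr (ENSMUSG00000044338) on chromosome 2 from 85136225 to 85139923 and Vegfc (ENSMUSG00000031520) on chromosome 8 from 54077606 to 54187096, all on the plus strand. All 5 are protein-coding genes, and the build is mm10. The 250 bases before the start site are shown from RefSeq on GRCm38.p6, where 4 of the 5 genes matched. The windows were searched for the letters of 3 factor families known in arterial or flow-responsive ECs, namely CACCC of KLF factors, ACAAT of SOX factors and TGGGAA of RBPJ, the DNA-binding partner of Notch. Both strands were searched, and capitals mark the matches on either strand. The sequences run 5′ to 3′ on the strand of the gene and cover chr4:127314040-127314289 for Gja4, chr6:117168285-117168534 for Cxcl12, chr4:134254107-134254356 for Grrp1 and chr8:54077282-54077531 for Vegfc.
Gja4: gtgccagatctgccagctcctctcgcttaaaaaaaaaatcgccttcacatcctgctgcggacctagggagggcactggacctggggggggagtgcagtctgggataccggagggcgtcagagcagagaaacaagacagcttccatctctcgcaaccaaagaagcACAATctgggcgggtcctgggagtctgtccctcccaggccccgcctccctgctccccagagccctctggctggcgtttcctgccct
Cxcl12: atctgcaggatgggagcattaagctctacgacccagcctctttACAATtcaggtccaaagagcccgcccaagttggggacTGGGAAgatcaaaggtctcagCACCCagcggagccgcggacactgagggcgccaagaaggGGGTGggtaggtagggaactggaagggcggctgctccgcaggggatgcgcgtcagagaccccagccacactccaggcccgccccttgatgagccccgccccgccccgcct
Grrp1: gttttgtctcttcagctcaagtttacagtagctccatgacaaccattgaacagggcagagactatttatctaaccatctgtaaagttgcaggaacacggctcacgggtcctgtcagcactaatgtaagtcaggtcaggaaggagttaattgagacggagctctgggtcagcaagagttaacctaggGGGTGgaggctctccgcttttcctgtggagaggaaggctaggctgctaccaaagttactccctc
Vegfc: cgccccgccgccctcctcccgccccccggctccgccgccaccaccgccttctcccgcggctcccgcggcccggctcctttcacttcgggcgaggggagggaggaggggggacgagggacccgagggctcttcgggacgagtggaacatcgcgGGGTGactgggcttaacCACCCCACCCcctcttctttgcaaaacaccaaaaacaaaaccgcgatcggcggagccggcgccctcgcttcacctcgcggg

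The Gja4 window held 1 SOX match, 86 bases before the start site, and no match to the other letters. The Cxcl12 window held all 3 kinds: a SOX match 207 bases, an RBPJ match 170 bases and KLF matches 149 and 110 bases before the start. Grrp1 had a single KLF match at 64 bases, and Vegfc had 3 KLF matches at 98, 81 and 76 bases, the last 2 of them adjoining. Matches to different families did not overlap. Such short letters are common: among 32851 promoter windows of the same length, 52.0% held the KLF letters, 27.7% the SOX letters and 21.6% the RBPJ letters. No set of letters was shared by the 4 windows, and the match counts are a description of these windows only. TET2 oxidises methylated cytosine, mostly at CG pairs, and the windows differed widely in these: Vegfc held 30 CG pairs, Cxcl12 14, Gja4 9 and Grrp1 4, against a median of 6 over all windows. Methylation was not measured in these libraries.

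Levels are given in FPKM, fragments per kilobase of gene scaled to the reads that the library had on genes, which allows comparison between genes as well as between libraries. The total of reads on genes ranged over the libraries from 36.7 M to 56.8 M reads, with a median of 39.6 M. WT HFD replicate 1 was the deepest library and the one in which all 5 genes stood highest. Each table lists only genes with an unadjusted p under 0.05 in the authors' DESeq2 comparison, so a gene has values only in the groups for which it is listed. Gja4, Grrp1 and Vegfc had values in all 12 libraries, and Cxcl12 and Aplnr in the 9 libraries of WT chow, WT HFD and TET2 KO HFD. Tet2 itself was listed only in the comparison of the diets in WT, so it has no value in mice carrying Cre, and the genotypes rest on the labels. TET2 KO chow replicate 1 stood above the other libraries of its group in Gja4, Grrp1, Vegfc and the pan-endothelial genes Ramp2 and Sox18. Not all endothelial genes did this: over the group Ednrb ran from 18.7 to 19.3 FPKM and Emcn from 1.96 to 2.67 FPKM. Values without this library are given where it moves a result. ECs were a part of the cells: the endothelial markers Pecam1, Cdh5 and Cldn5 reached means of 53.3, 74.0 and 147.3 FPKM in WT chow, while the club cell marker Scgb1a1 was at a mean of 5038 FPKM there. RNA of mixed cells cannot place any of the 5 genes in a cell type, and Vegfc belonged to none of the subtype marker lists used here. In such a mixture, fewer cells of a type and less RNA per cell cannot be told apart.

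Gja4 was measured in WT chow at 3.90, 4.74 and 4.52 FPKM, in TET2 KO chow at 17.6, 4.81 and 5.43, in WT HFD at 51.1, 25.1 and 23.6, and in TET2 KO HFD at 14.2, 13.3 and 8.69 (replicates 1 to 3 in each group). WT chow was the tightest group of the 4, with a coefficient of variation of 9.90%, against 77.5% in TET2 KO chow, where replicate 1 alone was high. The group means were 4.38 ± 0.43, 9.27 ± 7.19, 33.3 ± 15.5 and 12.1 ± 3.0 FPKM (SD, n = 3). The order from low to high was WT chow, TET2 KO chow, TET2 KO HFD and WT HFD. Of these neighbours, only TET2 KO chow and TET2 KO HFD overlapped in range.

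Cxcl12 was measured in WT chow at 3.38, 2.69 and 4.03 FPKM, in WT HFD at 30.1, 26.9 and 14.4, and in TET2 KO HFD at 12.3, 6.81 and 7.73. The chemokine's 3 groups did not overlap, with means of 3.37 ± 0.67, 23.8 ± 8.3 and 8.94 ± 2.93 FPKM (SD, n = 3), and TET2 KO HFD lay between the WT groups. The gap between the lowest WT HFD library and the highest TET2 KO HFD library was small beside the spread within either group.

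Aplnr was measured in WT chow at 1.61, 1.09 and 2.75 FPKM, in WT HFD at 19.9, 14.9 and 8.76, and in TET2 KO HFD at 4.84, 2.59 and 4.08. The apelin receptor was thus low in WT chow and TET2 KO HFD beside WT HFD, with means of 1.81 ± 0.85, 14.5 ± 5.6 and 3.84 ± 1.15 FPKM (SD, n = 3). TET2 KO HFD overlapped WT chow, since its replicate 2 lay below WT chow replicate 3. WT HFD overlapped neither group.

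Grrp1 was measured in WT chow at 1.32, 1.75 and 2.70 FPKM, in TET2 KO chow at 8.27, 2.80 and 2.22, in WT HFD at 20.0, 13.5 and 11.7, and in TET2 KO HFD at 5.41, 4.75 and 3.93. WT HFD stood clear of the other groups, which overlapped as neighbours, and the means were 1.92 ± 0.70, 4.43 ± 3.34, 15.1 ± 4.4 and 4.70 ± 0.74 FPKM (SD, n = 3). Grrp1 rested on the fewest reads, 74, 82 and 134 in the WT chow libraries against 1451, 680 and 585 in WT HFD.

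Vegfc was measured in WT chow at 1.96, 2.27 and 2.76 FPKM, in TET2 KO chow at 6.39, 3.90 and 3.30, in WT HFD at 12.7, 11.7 and 8.81, and in TET2 KO HFD at 7.52, 7.0 and 5.59. The order was that of Gja4, with means of 2.33 ± 0.41, 4.53 ± 1.64, 11.1 ± 2.0 and 6.71 ± 1.00 FPKM (SD, n = 3), and again only the TET2 KO groups overlapped. The growth factor had the smallest span of the 5 genes between the WT groups.

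**Figure D1:**
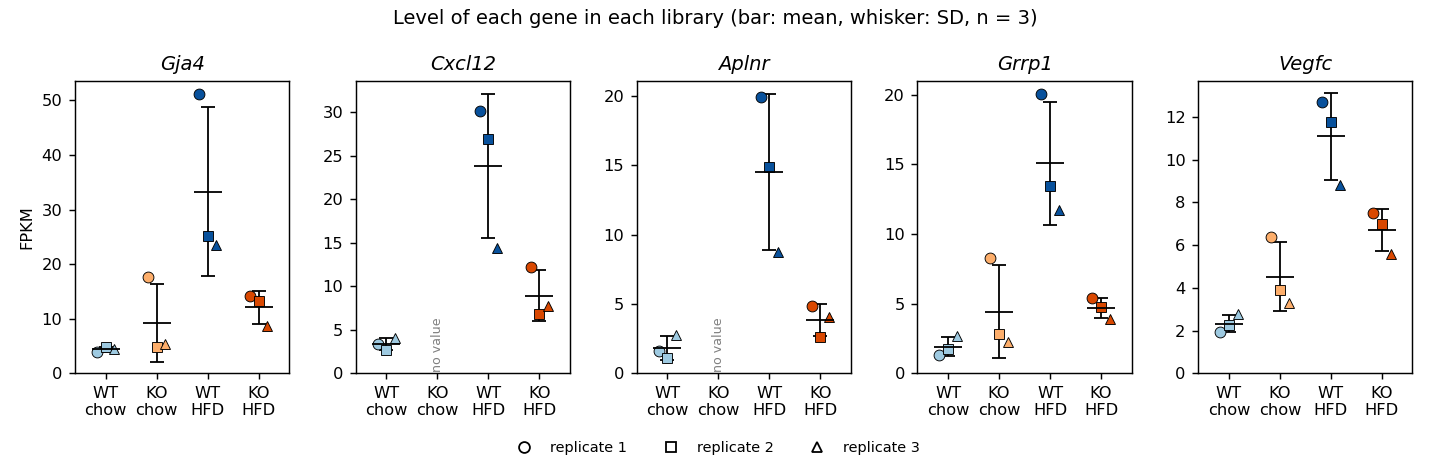
FPKM of Gja4, Cxcl12, Aplnr, Grrp1 and Vegfc (y axis, a separate scale for each gene) in each library of WT chow, TET2 KO chow, WT HFD and TET2 KO HFD (x axis). Symbols are replicates 1 to 3, bars are means and whiskers SD (n = 3). For each gene the 3 WT HFD libraries lay above every other library with a value, and TET2 KO chow replicate 1 stood above the rest of its group for Gja4, Grrp1 and Vegfc.

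The diet comparison in WT asked how HFD feeding changed the transcriptome of these cells. All 5 genes were listed, all 5 were higher in WT HFD and none had overlapping groups. Since the genes were chosen on these contrasts, nothing is read from that count. Among all 7330 genes listed in this comparison, 47.3% were higher in WT HFD and 86.5% had groups that did not overlap. The log2 fold change (HFD minus chow, edgeR estimate ± SE, n = 3 against 3) was 3.00 ± 0.43 for Aplnr, 2.98 ± 0.33 for Grrp1, 2.93 ± 0.33 for Gja4, 2.83 ± 0.31 for Cxcl12 and 2.26 ± 0.20 for Vegfc. As folds these were 8.02, 7.88, 7.62, 7.09 and 4.78. The 4 arterial and capillary genes thus lay within 1 SE of each other, and Vegfc below them.

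The comparison of TET2 KO with WT on HFD asked what endothelial loss of TET2 changed in mice on this diet. All 5 genes were listed, all 5 were lower in TET2 KO HFD, and none had overlapping groups. In this comparison 47.8% of the 3939 listed genes were lower in TET2 KO HFD and 74.7% had groups that did not overlap. The log2 fold change (TET2 KO minus WT) was −1.91 ± 0.35 for Aplnr, −1.68 ± 0.24 for Grrp1, −1.46 ± 0.34 for Gja4, −1.41 ± 0.33 for Cxcl12 and −0.72 ± 0.19 for Vegfc (edgeR estimate ± SE, n = 3 against 3). WT HFD was 3.77 times as high as TET2 KO HFD for Aplnr, 3.20 times for Grrp1, 2.74 times for Gja4, 2.65 times for Cxcl12 and 1.65 times for Vegfc. This comparison and the diet comparison share the WT HFD libraries, so the mirror image of their values is not independent. Without WT HFD replicate 1, the library with the highest levels, the Gja4 difference came to −1.01 on the log2 scale and that of Aplnr to −1.62.

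On chow, TET2 KO was compared with WT to ask what endothelial TET2 loss changed without the diet. Gja4, Grrp1 and Vegfc were listed, all 3 were higher in TET2 KO chow, and 2 of them, Gja4 and Vegfc, had groups that did not overlap. Of the 1298 genes listed there, 46.5% were higher in TET2 KO chow and 74.7% had groups that did not overlap. The log2 fold change (TET2 KO minus WT) was 1.21 ± 0.54 for Grrp1, 1.08 ± 0.49 for Gja4 and 0.96 ± 0.28 for Vegfc (edgeR estimate ± SE, n = 3 against 3). For Gja4 and Grrp1, TET2 KO chow replicate 1 carried most of this. Without it the log2 fold change was 0.22 ± 0.19 for Gja4, 0.38 ± 0.34 for Grrp1 and 0.62 ± 0.22 for Vegfc, and the folds went from 2.12 to 1.16, from 2.31 to 1.30 and from 1.95 to 1.54. Replicates 2 and 3 of Gja4, at 4.81 and 5.43 FPKM, then lay just above the highest WT chow library at 4.74. Grrp1 did not overlap on chow without TET2 KO chow replicate 3 or without WT chow replicate 3. Cxcl12 and Aplnr were not listed on chow.

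Between the diets in TET2 KO, none of the 5 genes was listed among 1628 genes. Values from the other comparisons placed TET2 KO HFD at 1.30 times the TET2 KO chow mean for Gja4, 1.06 times for Grrp1 and 1.48 times for Vegfc, with overlapping groups for all 3. The overlap rested on TET2 KO chow replicate 1. Without it TET2 KO HFD was 2.36 times the TET2 KO chow mean for Gja4, 1.87 times for Grrp1 and 1.86 times for Vegfc, and every TET2 KO HFD library lay above both other TET2 KO chow libraries. The Grrp1 ratio came to 0.98, 0.90 and 0.85 without TET2 KO HFD replicate 1 or TET2 KO chow replicate 2 or 3, and Vegfc did not overlap without TET2 KO HFD replicate 3. Over the genes with values in all 12 libraries, the difference between the genotype effects on the diets (TET2 KO minus WT on HFD, less TET2 KO minus WT on chow) was −2.89 ± 0.64 for Grrp1, −2.54 ± 0.66 for Gja4 and −1.69 ± 0.37 for Vegfc on the log2 scale (edgeR estimate ± SE, 12 libraries). Without TET2 KO chow replicate 1 these were −2.07, −1.69 and −1.36. No p is given, since the single contrasts chose the genes.

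The 5 genes were also set against a measure of endothelial RNA in the same library. Of 18 pan-endothelial genes, 14 had values in WT chow, WT HFD and TET2 KO HFD: Pecam1, Cdh5, Tie1, Tek, Cldn5, Esam, Egfl7, Emcn, Eng, Ramp2, Sox7, Sox18, Robo4 and Cd34. Their summed FPKM was 355, 307 and 857 in WT chow, 1731, 1310 and 976 in WT HFD and 920, 509 and 546 in TET2 KO HFD. The panel moved in the same direction as the 5 genes. It was 2.65-fold higher in WT HFD than in WT chow and 2.03-fold higher in WT HFD than in TET2 KO HFD. All 14 genes were listed in both comparisons, each time as higher in WT HFD. The direction of the panel was thus set by the listing, and ratios to it in WT HFD are lowered in advance. In WT chow, replicate 3 stood highest for the panel by far. It was also the highest WT chow library for Cxcl12, Aplnr, Grrp1 and Vegfc, while its Gja4 level lay between those of replicates 1 and 2. Without that library the panel was 4.05-fold higher in WT HFD than in WT chow.

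As a share of that sum, Gja4 came to 1.10, 1.54 and 0.528% in WT chow, 2.95, 1.92 and 2.41% in WT HFD and 1.54, 2.62 and 1.59% in TET2 KO HFD. Relative Gja4 was thus 2.30-fold higher in WT HFD than in WT chow without overlap, while the HFD groups overlapped. Without TET2 KO HFD replicate 2 the HFD groups did not overlap for Gja4, which was then 1.55-fold lower in TET2 KO. Without WT HFD replicate 1 the HFD groups still overlapped and the difference in relative Gja4 was smaller than with all libraries. Relative Cxcl12 was at 0.955, 0.877 and 0.471% in WT chow, at 1.74, 2.06 and 1.48% in WT HFD and at 1.34, 1.34 and 1.42% in TET2 KO HFD, so that WT HFD was 2.29-fold above WT chow and 1.29-fold above TET2 KO HFD without overlap.

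Relative Aplnr was at 0.454, 0.355 and 0.320% in WT chow, at 1.15, 1.13 and 0.897% in WT HFD and at 0.527, 0.508 and 0.747% in TET2 KO HFD. WT HFD was 2.82-fold above WT chow and 1.79-fold above TET2 KO HFD, and overlapped neither. Relative Grrp1 in WT HFD was 2.69-fold above WT chow and 1.51-fold above TET2 KO HFD, without overlap, with WT HFD libraries between 1.03 and 1.20%. Relative Vegfc was different: WT HFD exceeded WT chow 1.57-fold with overlapping groups. TET2 KO HFD lay 1.27-fold above WT HFD, again with overlap, so that the direction of Vegfc between the HFD groups turned. The panel genes were all listed as higher in WT HFD, so nothing is read from this turn. Single libraries decided both overlaps: the diets in WT did not overlap without WT HFD replicate 1 or WT chow replicate 2, at 1.67 and 1.93-fold, nor did the HFD groups without TET2 KO HFD replicate 1, at 1.42-fold. Other libraries left out made the Vegfc differences smaller, with overlap. These were WT chow replicate 3 for the diets in WT and TET2 KO HFD replicate 2 for the HFD groups.

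**Figure D2:**
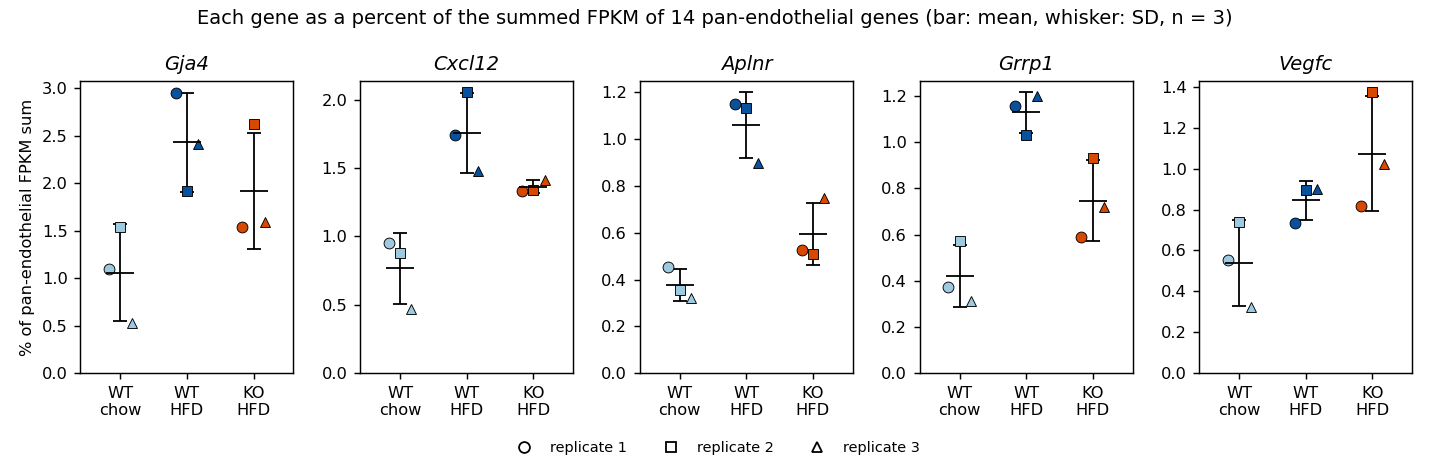
Each gene's FPKM as a percent of the summed FPKM of 14 pan-endothelial genes (y axis, a separate scale for each gene) in WT chow, WT HFD and TET2 KO HFD (x axis). Symbols are replicates, bars means and whiskers SD (n = 3). Aplnr and Grrp1 stayed lower in TET2 KO HFD than in WT HFD without overlap, at 1.79 and 1.51-fold, while Vegfc turned to 1.27-fold higher with overlap. The 14 genes were all listed as higher in WT HFD than in both other groups, so ratios in WT HFD are lowered in advance.

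For all 4 groups together, Emcn, Ramp2 and Sox18 were the pan-endothelial genes with values, and their sum was 28.6, 29.3 and 61.5 FPKM in WT chow and 167, 53.6 and 59.7 in TET2 KO chow. TET2 KO chow replicate 1 was again the high library, as it was for Gja4, Grrp1 and Vegfc. The mean of the sum was 2.35-fold higher in TET2 KO chow than in WT chow, against 2.11-fold for Gja4, 2.30-fold for Grrp1 and 1.95-fold for Vegfc in mean FPKM. Without that library the sum was 1.42-fold higher, with overlap, against 1.17-fold for Gja4, 1.31-fold for Grrp1 and 1.55-fold for Vegfc. Without WT chow replicate 3 the sum was 3.23-fold higher and its groups did not overlap. Relative to this sum, TET2 KO chow lay slightly below WT chow for all 3 genes, by 0.31, 0.11 and 0.21 on the log2 scale in that order, with overlapping groups. Ramp2 and Sox18 made up most of the sum and were the only pan-endothelial genes listed on chow, at log2 fold changes of 1.18 and 1.44. They had TET2 KO chow values only because they were listed as higher there, so ratios in TET2 KO chow are lowered in advance. Emcn, not listed between the genotypes on chow, was at a mean of 2.41 FPKM in TET2 KO chow against 2.37 in WT chow. Relative Gja4 did not overlap on chow without WT chow replicate 3, at 1.56-fold lower in TET2 KO. The relative chow differences of Grrp1 and Vegfc turned with 1 library left out, to 1.02-fold higher for Grrp1 without TET2 KO chow replicate 3, 1.03-fold without WT chow replicate 2 and 1.01-fold for Vegfc without TET2 KO chow replicate 1. Relative to the same sum, TET2 KO HFD was 2.14-fold above TET2 KO chow for Gja4, 1.75-fold for Grrp1 and 2.09-fold for Vegfc, without overlap with all libraries or with any 1 of them left out. With the smaller panel as the base for the HFD groups, TET2 KO HFD overlapped WT HFD for Gja4, Cxcl12, Aplnr and Vegfc, and Grrp1 alone stayed 1.26-fold lower in TET2 KO HFD without overlap. The genes of this panel too were all listed as higher in WT HFD than in TET2 KO HFD. On that base Aplnr did not overlap without TET2 KO HFD replicate 3, at 1.89-fold lower, and Vegfc, higher in TET2 KO HFD, did not overlap without TET2 KO HFD replicate 1 or WT HFD replicate 2. The small differences of Gja4 and Cxcl12 changed direction with some libraries left out. The part of the share of ECs in the differences of the 5 genes was not tested.

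**Figure D3:**
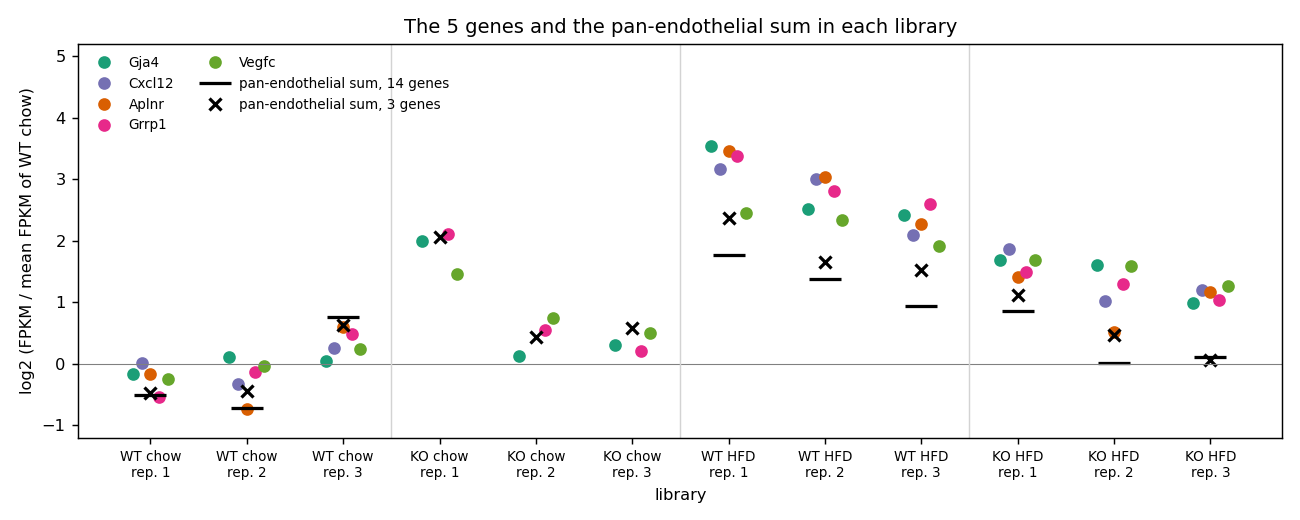
Log2 of FPKM over the mean FPKM of WT chow (y axis) for the 5 genes (coloured points) and for the pan-endothelial sums of 14 genes (bars) and 3 genes (crosses) in each of the 12 libraries (x axis). In the WT HFD libraries the 5 genes lay above the 14-gene sum, and TET2 KO chow replicate 1 stood above the rest of its group both for the 3-gene sum, at 167 FPKM, and for Gja4, at 17.6 FPKM.

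The other genes of each pathway were described from lists. For CXCL12, all 3 genes of its signalling list were listed and higher in WT HFD than in WT chow. Ackr3, the scavenging receptor, went from a mean of 4.69 to 19.2 FPKM, Cxcr4, the signalling receptor, from 315 to 452 FPKM, and Dpp4, a peptidase that inactivates the chemokine, from 13.2 to 21.1 FPKM. In TET2 KO HFD against WT HFD 1 of 3 was listed, Ackr3, lower at 8.83 FPKM with groups that did not overlap. Apln and Apela, the ligands of APLNR, were listed in none of the comparisons.

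Of 8 entries in the VEGFC list, of which Figf and Vegfd are names of the same gene, 5 were listed between the diets in WT, 3 higher and 2 lower in WT HFD. Flt4, the VEGFC receptor, was higher at 6.91 against 3.34 FPKM and Kdr, VEGFR2, at 38.1 against 21.0 FPKM, both with overlapping groups. Adamts14, a protease related to the one that matures VEGFC, was higher at 4.11 against 1.54 FPKM. Nrp2, a co-receptor, was lower at 3.27 against 4.90 FPKM, and Ccbe1, a cofactor of VEGFC maturation, was lower at 0.22 against 0.44 FPKM. In TET2 KO HFD against WT HFD, Flt4 alone was listed, lower at 3.68 against 6.91 FPKM with overlap. Among other VEGF genes, Vegfa was higher in WT HFD at 63.1 FPKM than in WT chow at 30.8 and in TET2 KO HFD at 37.4, without overlap. Nrp1 was higher in WT HFD than in WT chow, at 24.2 against 14.3 FPKM without overlap. Flt1 and Pgf were lower in TET2 KO HFD than in WT HFD, at 14.2 against 21.3 FPKM with overlap and at 0.21 against 0.39 without. Between the diets in TET2 KO, Nrp2 (2.62 against 4.50), Ccbe1 (0.24 against 0.38, with overlap) and Pgf (0.21 against 0.46) were lower on HFD.

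The 3 other endothelial connexins were all higher in WT HFD than in WT chow. Gja5, the second arterial connexin, was at 1.32 against 0.52 FPKM, Gjc1 at 2.66 against 0.93 and Gja1 at 1.17 against 0.69, and none of the 3 had overlapping groups. Gja5 and Gjc1 were lower in TET2 KO HFD than in WT HFD, at 0.90 and 1.38 FPKM, with overlap. Gja4 thus stood above the other connexins in each group of WT mice. Of 11 Notch and shear regulators, 9 were listed between the diets in WT and all 9 were higher in WT HFD without overlap. Klf2 went from 229 to 470 FPKM, Klf4 from 172 to 245, Hes1 from 19.3 to 39.2, Notch4 from 7.02 to 21.3, Dll4 from 9.34 to 19.0 and Sox17 from 3.73 to 15.5. In TET2 KO HFD against WT HFD 7 of the 11 were listed, all lower, among them Notch4 at 9.77, Dll4 at 9.23 and Sox17 at 6.55 FPKM without overlap and Klf2 at 338 FPKM with overlap. On chow Gja5 and Hes1 were higher in TET2 KO than in WT, at 0.86 against 0.52 and 30.9 against 19.3 FPKM, both with overlap. These lists were drawn up with earlier results known, and their counts stand beside the 47.3% of listed genes that were higher in WT HFD and the 47.8% that were lower in TET2 KO HFD, and counts without overlap beside the 86.5% and 74.7% of listed genes without overlap in these comparisons.

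Marker lists of the endothelial subtypes were counted in the same way. In WT HFD against WT chow, 15 of 17 arterial genes were listed and higher, with a median log2 fold change of 1.20 that includes Gja4 and Cxcl12, and 8 of 10 general capillary genes, with a median of 1.84 that includes Aplnr and Grrp1. The counts were 7 of 9 for aerocyte genes (median 1.04), 5 of 10 for venous genes (1.16), 5 of 10 for lymphatic genes (1.05) and 16 of 18 for pan-endothelial genes (1.47), each of them higher, while the median over all listed genes was −0.32. The tables hold only genes that passed the listing threshold, so the share of all measured genes that were listed was not analysed here and the counts of listed genes have no such share beside them. The 4 arterial and capillary genes named at the start had the largest fold changes of their own lists. Nothing is read from this ranking, because they were chosen on these contrasts. The nearest of the other arterial genes were Sox17, at a log2 fold change of 2.06, and Sema3g, at 1.93, and the nearest capillary genes were Sema3c, at 2.15, and Gpihbp1, which anchors lipoprotein lipase to capillaries, at 2.09. Among the best expressed others, Efnb2 was at 1.20, Cd93 at 1.60, Ptprb at 1.20 with overlapping groups and Tek at 1.56. The aerocyte genes Ednrb and Prx were at 1.58 and 1.07. The venous gene Ephb4 was at 2.11, and Vwf was at 1.16 with overlapping groups. The lymphatic gene Ccl21a was at 1.84, also with overlapping groups. Ephb4 and Ccl21a were the highest of the listed genes of their lists.

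In TET2 KO HFD against WT HFD, 10 of 17 arterial genes were listed and lower (median log2 fold change −1.14) and 9 of 10 general capillary genes (−1.28), both medians again including the chosen genes. The arterial genes Mgp and Cdh13 were not listed but had values from other comparisons, higher in TET2 KO HFD with overlap. Their means were 16.3 and 0.73 FPKM there against 13.3 and 0.55 FPKM in WT HFD. Of the aerocyte genes 1 of 9 was listed, Ednrb (−1.0, with overlapping groups), and of the venous genes 1 of 10, Ephb4 (−1.51). Lymphatic genes were listed and lower in 6 of 10 cases (−0.76) and pan-endothelial genes in 15 of 18 (−0.98), while the median over all listed genes was 0.33. Aplnr and Grrp1 had the lowest fitted values among the capillary genes, followed by Gpihbp1 at −1.50, Cd93 at −1.32 and Sema3c at −1.28. Among arterial genes Gja4 was followed closely by Hey1 at −1.44, Sema3g at −1.42, Cxcl12 at −1.41 and Sox17 at −1.23. The ranks of the chosen genes again follow a choice on these contrasts, and nothing is read from them. Lyve1 and Flt4 of the lymphatic list were at −0.76 and −0.90, both with overlapping groups, and Prox1 of the same list was not listed in this comparison. The difference between lists was not tested.

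**Figure D4:**
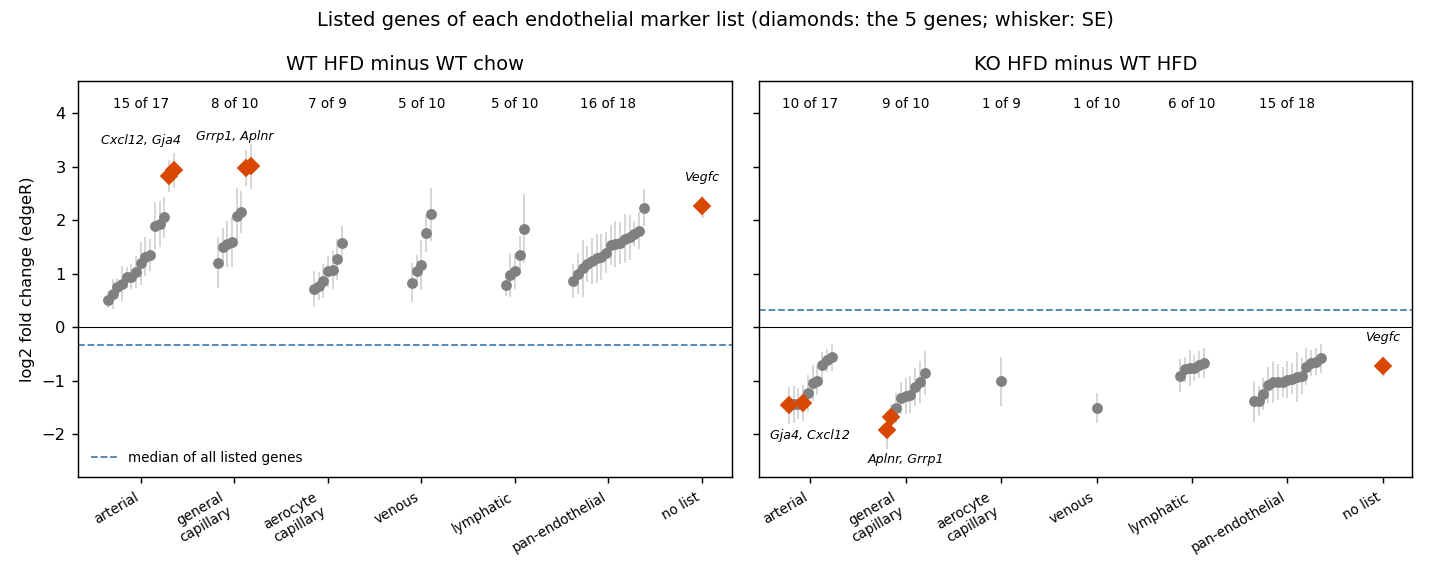
Log2 fold change (y axis, edgeR estimate with SE as whiskers) of every listed gene of 6 endothelial marker lists (x axis) for WT HFD minus WT chow (left) and TET2 KO HFD minus WT HFD (right), with the number listed of the list's genes at the top. Diamonds are Gja4, Cxcl12, Aplnr, Grrp1 and Vegfc, of which Vegfc is in none of the lists, and the dashed line is the median of all listed genes, −0.32 on the left and 0.33 on the right. Listed genes of every list lay above 0 on the left and below 0 on the right.

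Markers of other cells moved as well. In WT HFD against WT chow 9 of 13 T and NK cell genes were listed, all higher, with a summed level of 175 to 225 FPKM against 71.7 to 121. Of 15 monocyte, macrophage and neutrophil genes 4 were higher and 3 lower (251 to 409 against 225 to 339 FPKM), of 14 lung epithelial genes 4 were higher and 3 lower (2300 to 4662 against 4389 to 5894 FPKM), and of 16 fibroblast and mural genes 5 were higher and 2 lower (3.87 to 10.1 against 3.21 to 4.17 FPKM). Both listed mesothelial genes of 6 were lower, at 38.9 to 61.0 against 78.8 to 132 FPKM, and no B cell gene was listed. In TET2 KO HFD against WT HFD the lists held 1 T and NK cell gene, lower at 1.08 to 5.22 against 4.20 to 8.46 FPKM, 1 monocyte gene, lower at 3.65 to 9.16 against 11.03 to 17.4 FPKM, 2 epithelial genes, lower at 28.8 to 48.0 against 70.3 to 85.3 FPKM, 1 mesothelial gene, higher at 1.41 to 3.16 against 0.658 to 2.07 FPKM, and 0 of 16 fibroblast and mural genes. In TET2 KO chow against WT chow 6 of 13 T and NK cell genes were listed and higher, at 95.8 to 149 against 60.5 to 96.9 FPKM, 2 of 15 monocyte genes higher, at 19.4 to 30.8 against 10.9 to 15.5, and 4 of 16 fibroblast genes lower, at 3.05 to 3.86 against 4.33 to 9.18. There 4 of 14 epithelial genes were listed, 1 higher and 3 lower, at 2371 to 3110 against 4302 to 5646 FPKM, and 4 of 6 mesothelial genes, all lower, at 0.674 to 1.30 against 1.21 to 8.18. No marker with a value was at 0 in any library. The part of these cells in the differences of the 5 genes was not tested.

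Across libraries the 5 genes tracked each other. Pearson's r of log2(FPKM + 0.1) between pairs ran from 0.904 for Aplnr and Vegfc, over 9 libraries, to 0.978 for Cxcl12 and Aplnr, over the same 9, and Gja4 and Grrp1 reached 0.975 over 12. These points share the same libraries and groups, and the 5 genes were chosen on differences between these groups. High r between them thus follows in part from the choice, and the values are a description. Among 701 other genes with values in all 12 libraries and a mean of at least 1 FPKM, those most like Gja4 were Rgs3 (r = 0.956), Plscr3 (0.948) and P3h4 (0.945). Those most like Grrp1 were Plscr3 (0.987), S100a16 (0.980) and Ppic (0.969), and those most like Vegfc were Lipe (0.966), Plscr3 (0.955) and 4930578C19Rik (0.943). Over 9 libraries and 2354 genes, Cxcl12 was most like Rcn1 (0.991), Fam124b (0.988) and 4930578C19Rik (0.987), and Aplnr most like Fez2 (0.995), Fam124b (0.992) and Rcn1 (0.992). Plscr3 stood in the nearest 3 of each gene compared over 12 libraries, and Fam124b and Rcn1 in those of both genes compared over 9.

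**Figure D5:**
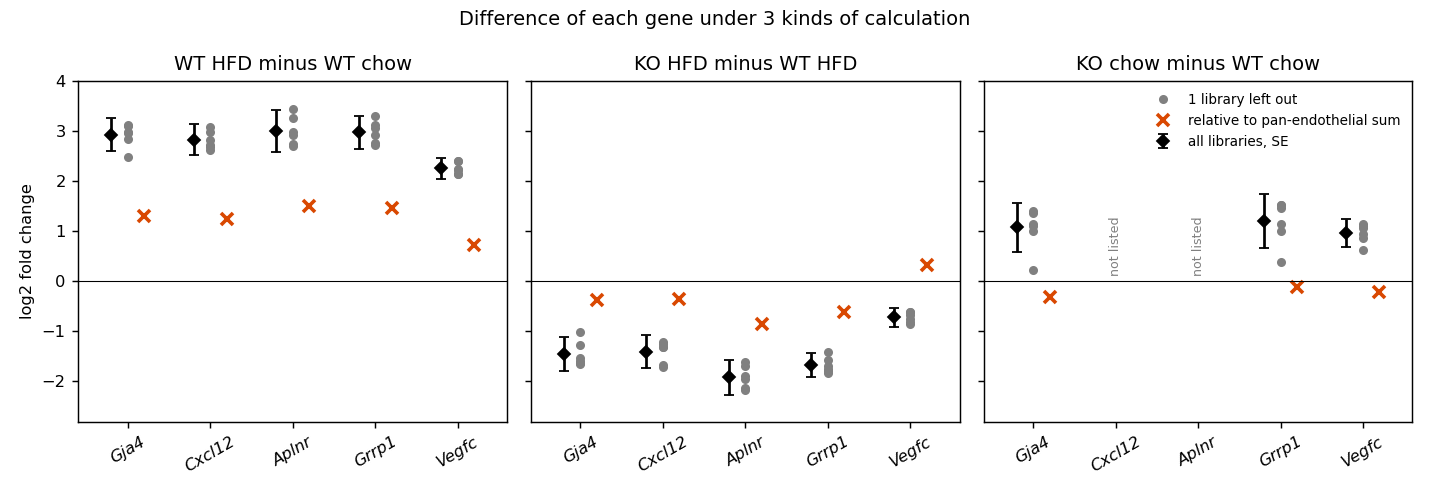
Log2 fold change (y axis) of each gene (x axis) for WT HFD minus WT chow, TET2 KO HFD minus WT HFD and TET2 KO chow minus WT chow. Diamonds with SE use all libraries, grey points leave out 1 library each and crosses are relative to the pan-endothelial sum (14 genes on HFD, 3 genes on chow). The HFD differences kept their direction with any 1 library left out, Vegfc turned from −0.72 to 0.32 relative to the sum, and Gja4 on chow came to 0.22 without TET2 KO chow replicate 1. The 14 genes were all listed as higher in WT HFD, so nothing is read from the turn of Vegfc.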

How the data were processed

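RNA of CD31+ cells was sequenced from 12 mice, 3 a group. Replicate numbers and groups are those of the sample titles, which call the samples biological replicates. According to the methods and the processing notes, the authors mapped paired-end reads to mm10 (HISAT2), took gene counts with featureCounts and used DESeq2 between groups (versions, annotation and strand setting not given in the sources used here). The authors deposited 4 tables with raw counts, a normalized signal (the count divided by the size factor of its library and table) and FPKM for every gene with an unadjusted p under 0.05. The authors' log2 fold change and p-value columns, which their DESeq2 comparisons made, hold the study's own results and gave no value here. Unlisted genes have no values here.

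The 5 genes, the marker and pathway lists, and the factor letters searched were chosen with earlier results of these data known. Library totals were recovered from counts, lengths and FPKM, and size factors from counts over normalized signal. FPKM was the same for a library in each table. Log2 fold changes and SE are from edgeR's quasi-likelihood fit (edgeR 4.0.16, R 4.3.3) over all listed genes of a comparison, the 2 groups only, no covariate, and for the difference of differences over 975 genes listed with values in all 4 groups with library totals. The fit code was run on simulated counts with known changes, the same spread for all genes and no choice of genes by p. That run does not show how choosing the genes affects their estimates and SE. With 3 mice a group the spread between mice, rather than counting, limits the values. Alternatives were library totals, DESeq2 1.42.0, limma-trend (version 3.58.1) with a pseudocount of 1 added to the normalized signal, log2(FPKM + 0.1) and log2(FPKM + 1), a mean of at least 10 normalized counts, the replicate number as a block, and leaving out each library. The ratio to pan-endothelial genes, and folds of means with each library left out, were added after the data were seen. Likeness was taken among genes with a mean of at least 1 FPKM, and the 3 highest r are named. Of each marker list, genes of highest FPKM are named. Pecam1, Cdh5, Cldn5, Scgb1a1, Mgp and Cdh13, and list genes named for being nearest to the 5 genes, were chosen after their values were seen. Promoter windows are from RefSeq. Python 3.11.15, numpy 2.4.6, pandas 2.3.3 and matplotlib 3.10.9 made the summaries.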

Additional observations from a re-analysis of the deposited data

Results flagged for a closer look

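Gja4 and Vegfc were higher in every TET2 KO chow library than in any WT chow library, and lower in every TET2 KO HFD library than in any WT HFD library. The log2 difference between the genotype effects on the diets was −2.54 for Gja4 and −1.69 for Vegfc. The difference between the diets was not tested, since the same contrasts chose these genes. On chow the separation of Gja4 was narrow, 4.81 FPKM in the lowest TET2 KO library against 4.74 in the highest WT library. Without TET2 KO chow replicate 1 the log2 fold change of Gja4 on chow was 0.22. Relative to the pan-endothelial sum the chow differences turned to −0.31 for Gja4 and −0.21 for Vegfc, with overlap, and that of Vegfc on HFD to 0.32. The chow sum was mostly Ramp2 and Sox18, both listed as higher in TET2 KO chow, so nothing is read from the turn on chow. The genes of the HFD sum were all listed as higher in WT HFD, so nothing is read from the turn of Vegfc there either. The FPKM of Grrp1 moved in the same directions as that of Gja4 and Vegfc on average but its chow groups overlapped.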

How the results depend on the processing

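Apart from leaving out libraries, 103 of 118 values under other settings held. For fold changes and their differences this means a move of less than 1 SD between replicates, and for counts of genes the same count. Of the others, 13 came from the ratio to the pan-endothelial sum, an alternative chosen after the data were seen. Under it the log2 difference between the diets in WT was 1.31 for Gja4, 1.25 for Cxcl12, 1.5 for Aplnr, 1.47 for Grrp1 and 0.72 for Vegfc. TET2 KO minus WT on HFD became −0.36 for Gja4, −0.35 for Cxcl12, −0.85 for Aplnr and −0.62 for Grrp1, and reversed to 0.32 for Vegfc. On chow it reversed to −0.31 for Gja4, −0.11 for Grrp1 and −0.21 for Vegfc. The base on chow was mostly Ramp2 and Sox18, both listed as higher in TET2 KO chow, so nothing is read from these reversals. The base for the other comparisons held only genes listed as higher in WT HFD. The smaller differences under it, and the reversal of Vegfc, were thus in part set in advance. The cause of the changes under this ratio was not tested. On log2(FPKM + 1), which pulls low values together, the WT diet difference was 2.45 for Grrp1 and 1.85 for Vegfc.

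With each library left out in turn, TET2 KO minus WT on chow ranged from 0.22 to 1.40 for Gja4 and from 0.38 to 1.53 for Grrp1, the lowest value of both being that without TET2 KO chow replicate 1. HFD minus chow in WT ranged from 2.48 to 3.13 for Gja4. The difference of differences ranged from −2.85 to −1.69 for Gja4, from −3.21 to −2.07 for Grrp1 and from −1.87 to −1.36 for Vegfc. No direction changed in any of these 114 fitted values. Same-numbered samples did not deviate together (correlations from −0.14 to 0.21), so the numbers were not taken as pairs, and with the replicate block the diet difference in WT was 2.83 for Gja4 and TET2 KO minus WT on HFD −1.89 for Aplnr. With the block the chow difference was 0.80 for Gja4, 0.99 for Grrp1 and 0.91 for Vegfc. Counts of the 5 genes by direction and overlap were the same on FPKM and on normalized counts. No values could be given for the 5 genes between the diets in TET2 KO by the fits, since none was listed there. Grrp1 rested on the fewest reads. Of the folds of mean FPKM, those between the diets in TET2 KO moved most, from 1.30 to 2.36 for Gja4 and from 1.06 to 1.87 for Grrp1 without TET2 KO chow replicate 1, a calculation chosen after the data were seen.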
